A study of Mus musculus with 48 samples.

Results

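The genes described are 9 genes of hexose transport, fructose breakdown and glucose output in the mouse small intestine: Slc5a1, Slc2a2, Slc2a5, Khk, Tkfc, G6pc, Pck1, Fbp1 and Txnip. They were taken by symbol from the gene names of the authors' normalized tables, a rule that uses no measured value. All 9 matched 1 identifier each among the 54532 gene identifiers of the count table, and all 9 passed the low-count filter, which kept 21986 genes.

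Dietary glucose and galactose enter the enterocyte, the absorptive cell of the gut lining, across its lumenal face through the sodium-coupled transporter SGLT1, encoded by Slc5a1. Fructose enters through GLUT5, encoded by Slc2a5, and the sugars leave toward the blood through GLUT2, encoded by Slc2a2. Inside the cell ketohexokinase (Khk) phosphorylates fructose, and triokinase (Tkfc) phosphorylates the glyceraldehyde that forms as fructose is broken down. Phosphoenolpyruvate carboxykinase (Pck1), fructose-1,6-bisphosphatase (Fbp1) and the catalytic subunit of glucose-6-phosphatase (G6pc) are among the enzymes of gluconeogenesis that glycolysis does not share. Txnip encodes an arrestin-fold protein that limits glucose uptake, and its gene is a well-known target of glucose-sensing transcription factors. Mouse milk carries lactose, and pups move to starch and sucrose as they begin to eat chow.

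The series profiled total RNA of whole-thickness intestine from C57Bl/6J mice of both sexes, with no treatment or transgene named in the labels. Each sample was 2 cm of bowel, either duodenum just after the pylorus or ileum just before the ileocecal junction, taken at day 0, 2, 4, 6 or 8 or at week 2, 3 or 4 after birth. All pups stayed with the dam until 21 days and had chow afterward. The labels call the housing standard germ-free, and what that wording covers was not settled. Each of the 16 groups of region and age had 3 samples, 48 in all. The 2 day 6 samples numbered 3 were left out, because each carried the other region's markers. For Pdx1, whose factor marks the proximal bowel, the values were 0.115 CPM under the duodenum label and 14.6 CPM under the ileum label. CPM is the usual depth-scaled count, taken relative to the scaled total of its library. This left 46 samples, with 2 at day 6 in each region. Nothing states that samples of the same number came from one animal, and the p-values measure only the spread between these samples.

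Total counts ran from 16824021 to 65042327 per sample. Mitochondrial transcripts took 13.1% to 35.2% of them. The 12 markers of absorptive epithelium summed to between 5749 and 23450 CPM. The 3 duodenum markers summed to between 250.1 and 507.9 CPM in duodenum and between 25.9 and 165 CPM in ileum. Markers of smooth muscle were low for whole-thickness bowel, at 4.68 to 194 CPM for the sum of 6 genes. Ddx3y, a gene of the Y chromosome, exceeded 1 CPM in 16 of 46 samples and in none of day 6, day 8 or week 4, so the sexes were unevenly spread over the ages. Ileum week 4 sample 1 stood apart from its group. Its 3 ileum markers summed to 109.7 CPM, against 2000 and 2303 CPM in samples 2 and 3. Its duodenum markers summed to 104.1 CPM, against 25.9 and 38.6 CPM. The results of the 9 genes in ileum at week 4 are therefore also given without this sample. Ileum day 0 sample 2 had the highest duodenum marker sum of the ileum samples, 165.3 CPM, against 35 and 81.3 CPM in its group. Its ileum markers summed to 68.7 CPM, against 72.3 and 93 CPM. It was also the highest of its group for Slc2a2, Slc2a5, Khk, Tkfc and G6pc, and it was kept.

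The 9 genes showed 3 patterns of level. Slc5a1, Slc2a2, Slc2a5, Khk and Tkfc had their highest group mean in duodenum at week 4 and a low point in the first 8 days. G6pc, Pck1 and Fbp1 had theirs in the suckling period, at day 2 or week 2 in duodenum, and a low point in ileum at week 3 or week 4. Txnip moved least, with a 2.62-fold span between its highest mean, 406 CPM in duodenum at day 6, and its lowest, 155 CPM in duodenum at week 3. The widest span was that of Slc2a5, 69.6-fold, from 3.31 CPM in ileum at day 8 to 230.1 CPM in duodenum at week 4. Fbp1 spanned 42.6-fold and G6pc 27.9-fold. When the 16 groups were ordered by mean, most neighbours in the order overlapped. For Pck1 all 15 neighbouring pairs had overlapping samples, and for Fbp1 10 of 15 did, the fewest among the 9.

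**Figure D1:**
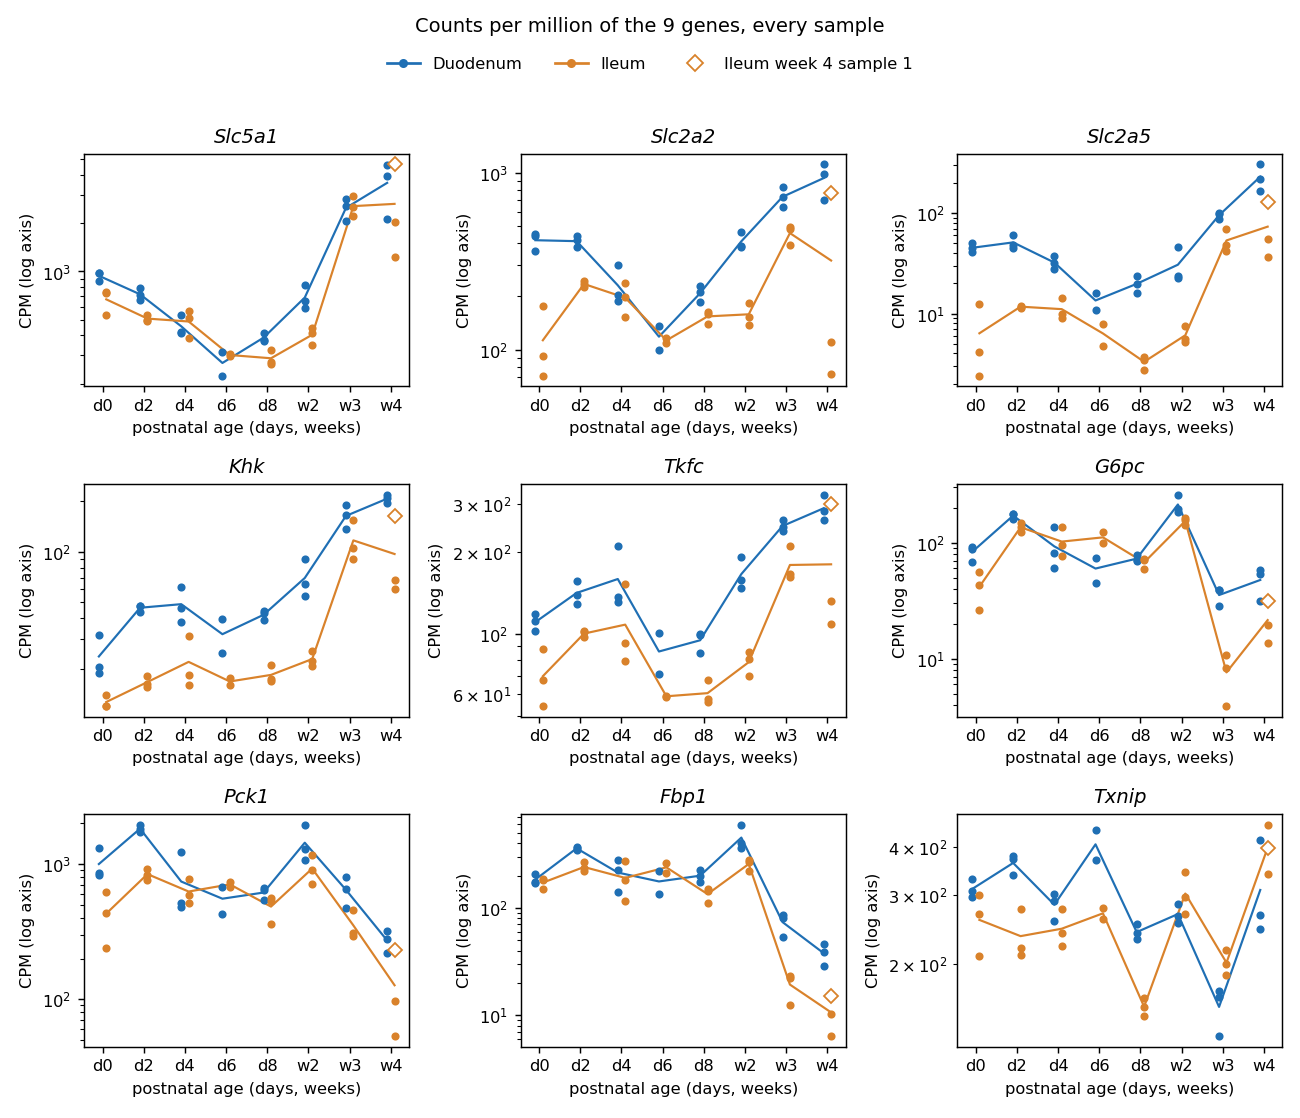
CPM (log axis) of each gene in every sample, by age, in duodenum (blue) and ileum (orange); points are samples and lines join group means. The transporters, Khk and Tkfc climb at week 3, G6pc, Pck1 and Fbp1 drop there, and the open diamond marks ileum week 4 sample 1.

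Per kilobase of exon, the scale on which genes can be compared with one another, the order of levels turned over between day 2 and week 4. In duodenum at day 2 Pck1 led with a mean of 533 CPM per kilobase, followed by Fbp1 with 211 and Slc5a1 with 176. Slc2a5 was the lowest of the 9 there, at 15 CPM per kilobase. By week 4 Slc5a1 led with 869 CPM per kilobase, followed by Slc2a2 with 162.5 and Khk with 116. G6pc and Fbp1 were then the lowest, at 19.7 and 22.2 CPM per kilobase.

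All 9 genes varied with age in duodenum and all 9 in ileum by edgeR's quasi-likelihood F test with Benjamini-Hochberg adjustment. The adjusted p ranged up to 1.68e-05 in duodenum and 0.00085 in ileum, the highest in each region being that of Slc2a2. Age effects were common in the whole table, with 67.4% of tested genes called in duodenum and 58.7% in ileum at an adjusted p under 0.05. In this bulk tissue a lower value can come from fewer cells of a type or from less RNA per cell, and these cannot be told apart.

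More of the 9 genes were called between week 2 and week 3, the step that ends at the age of weaning, than over any other single step tested; whether the week 3 mice had already eaten chow is not stated. In ileum 5 of the 9 genes rose and 4 fell over this step. In duodenum 3 rose, 4 fell and 2 did not pass. The background was 7.7% of genes higher and 10.6% lower in duodenum, and 12.9% higher and 13.9% lower in ileum. Median log2 changes of all tested genes over this step were 0.03 in both regions.

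Slc5a1 is encoded on the forward strand of chromosome 5 at 33104219 to 33162870 (GRCm38, GENCODE M21). The duodenum level was 822, 588.5 and 653 CPM in the week 2 samples and 2850, 2562 and 2061 CPM in those of week 3. The ileum level was 411.5, 350.4 and 447 CPM, then 2506, 2952 and 2206 CPM. All week 3 samples lay above all week 2 samples in both regions. The rise was 1.86 ± 0.28 (SE) on the log2 scale in duodenum (adjusted p = 2.53e-06) and 2.66 ± 0.29 in ileum (adjusted p = 1.72e-09). Slc5a1 was already high at birth, with a mean of 940.3 ± 60.9 CPM (SD, n = 3) in duodenum and 670.1 ± 117 CPM in ileum, and its means at day 8 were 387 and 288 CPM. From day 2 to day 8 it fell by 0.90 on the log2 scale in duodenum (SE 0.27, adjusted p = 0.00941).

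The 250 bases before the start of Slc5a1 are shown because they hold the hexamer CACGTG, the E-box letters that many helix-loop-helix factors, those of glucose sensing among them, can bind (RefSeq promoters of GRCm38.p6, chr5:33103969-33104218, forward strand, 5′ to 3′, the hexamer in capitals at -143 to -138).
Slc5a1: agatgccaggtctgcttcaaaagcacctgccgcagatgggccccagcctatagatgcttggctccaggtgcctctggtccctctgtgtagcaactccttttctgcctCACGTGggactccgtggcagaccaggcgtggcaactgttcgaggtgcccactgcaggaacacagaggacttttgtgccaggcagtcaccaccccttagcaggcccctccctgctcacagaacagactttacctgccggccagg
CACGTG reads the same on both strands. It occurred in this window for Slc5a1 and Khk among the 9 genes and for 6.02% of all 32851 RefSeq promoters of that length, so its presence is a description of the letters and no evidence of binding.

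Slc2a2, the GLUT2 gene on the forward strand of chromosome 3 (28697903 to 28731359), was called over this step in ileum and not in duodenum. Its ileum samples were 154, 138 and 183 CPM at week 2, then 495, 481 and 393.5 CPM at week 3. The ileum rise was 1.53 ± 0.44 on the log2 scale (adjusted p = 0.00734). In duodenum they were 464, 379 and 387.5 CPM at week 2, then 833, 727 and 638 CPM at week 3, without overlap, and the difference of 0.84 ± 0.43 did not pass (adjusted p = 0.192). The difference between the regions' changes was 0.69 ± 0.60 and was not called (adjusted p = 0.855), so the step was not shown to differ between them.

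Slc2a5, the GLUT5 gene on the forward strand of chromosome 4 (150119283 to 150144169), had the largest rise of the 9 in ileum. Its ileum samples were 5.57, 5.19 and 7.45 CPM at week 2, then 47.8, 70.1 and 42.3 CPM at week 3. That is 8.79-fold between the means, or 3.14 ± 0.41 on the log2 scale (adjusted p = 1.89e-07). In duodenum its samples were 45.6, 23.7 and 22.5 CPM at week 2, then 99.97, 88.1 and 97.1 CPM at week 3, a rise of 1.64 ± 0.38 (adjusted p = 0.00169). Duodenum week 2 sample 1 was the highest of its group here, as it was for all 9 genes. Of the 3 transporters, Slc2a5 alone was called in duodenum between week 3 and week 4, when its samples were 167, 218 and 306 CPM. This second rise was 1.27 ± 0.38 on the log2 scale (adjusted p = 0.0199). Its call was lost without week 3 sample 1, 2 or 3 or week 4 sample 3, with adjusted p of 0.0582, 0.0777, 0.0578 and 0.108.

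Khk, on the forward strand of chromosome 5 (30921431 to 30931248), rose in both regions. Its duodenum samples were 90.7, 54.3 and 63.9 CPM at week 2, then 165, 189 and 137 CPM at week 3, a rise of 1.23 ± 0.27 on the log2 scale (adjusted p = 0.000703). Its ileum samples were 22.3, 20.7 and 25.4 CPM at week 2, then 89.98, 155.7 and 105 CPM at week 3, a rise of 2.36 ± 0.28 (adjusted p = 1.57e-08). No week 2 sample reached a week 3 sample in either region. Tkfc, on the reverse strand of chromosome 19 (10587791 to 10605654), rose from 69.7, 80.7 and 85.6 CPM to 166, 210.0 and 162 CPM in ileum. That rise was 1.19 ± 0.24 on the log2 scale (adjusted p = 0.000192). In duodenum Tkfc went from 192, 158 and 148 CPM to 247, 261.5 and 239 CPM, a difference of 0.59 ± 0.24 that did not pass (adjusted p = 0.0859).

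**Figure D2:**
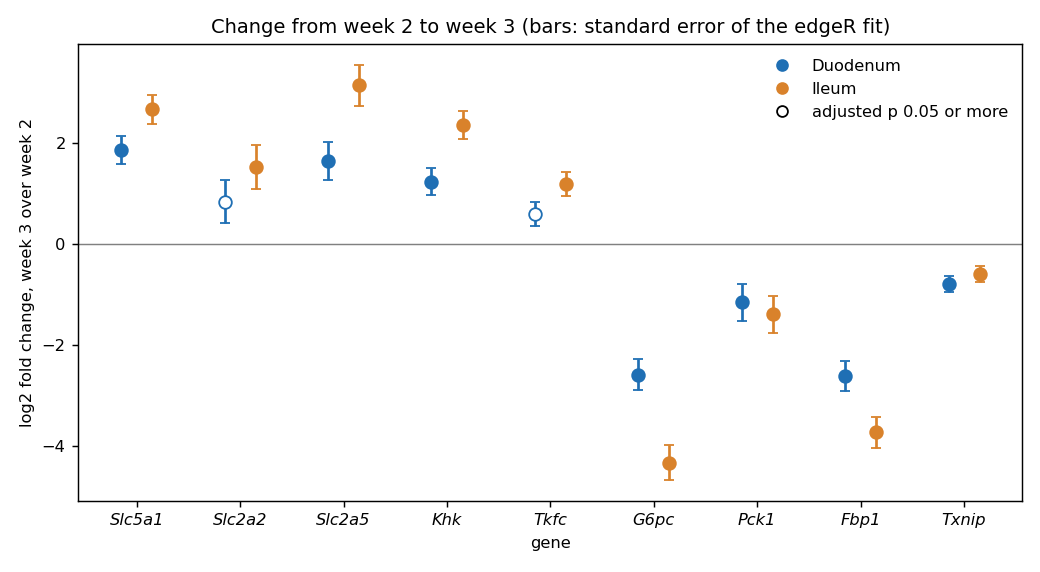
Log2 fold change of each gene from week 2 to week 3 (vertical axis) in duodenum (blue) and ileum (orange), with the standard error of the edgeR fit as bars; open symbols did not pass an adjusted p of 0.05. The transporters, Khk and Tkfc lie above 0 and G6pc, Pck1, Fbp1 and Txnip below it in both regions, with G6pc in ileum the lowest at -4.34.

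G6pc, on the forward strand of chromosome 11 (101367561 to 101377903), had the largest fall. In ileum its samples were 162, 142 and 156 CPM at week 2, then 3.92, 8.25 and 10.7 CPM at week 3, and 98 counts stood behind the lowest of these. The ileum means differed 20.1-fold, and G6pc fell by 4.34 on the log2 scale (SE 0.34, adjusted p = 1.45e-12). In duodenum its samples were 259, 183.5 and 195 CPM at week 2, then 28.3, 38.7 and 39 CPM at week 3, a 6.01-fold difference (log2 -2.59 ± 0.31, adjusted p = 3.94e-08). The change in ileum minus that in duodenum was -1.75 ± 0.43 on the log2 scale (adjusted p = 0.0264), and G6pc was the only one of the 9 for which this difference was called, against 1.38% of all genes. With same-numbered samples of the regions paired, 2 of the 9 were called, G6pc at -1.84 ± 0.37 (adjusted p = 0.0078) and Fbp1 at -1.17 ± 0.28 (adjusted p = 0.0319). The share of all genes called in the paired fit is not given here, so this count has no background beside it. In the unpaired fit the G6pc call was lost without duodenum week 2 sample 2 or 3 or duodenum week 3 sample 2 or 3. The same held without ileum week 2 sample 1 or 3 or ileum week 3 sample 1 or 2. In these runs the log2 values were from -1.81 to -1.43 and the adjusted p from 0.0532 to 0.0854. The unpaired G6pc call was also lost with no low-count filter (adjusted p = 0.0637) and with the day 6 samples numbered 3 kept (adjusted p = 0.069).

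Fbp1, on the reverse strand of chromosome 13 (62864753 to 62888282), fell with it. Its ileum samples were 268.5, 223 and 278 CPM at week 2, then 22.2, 23.1 and 12.5 CPM at week 3, a 13.3-fold difference (log2 -3.73 ± 0.31, adjusted p = 2.84e-12). Its duodenum samples were 595, 358 and 402 CPM at week 2, then 80.8, 86.5 and 53.7 CPM at week 3, a 6.13-fold difference (log2 -2.62 ± 0.29, adjusted p = 5.79e-09). The groups did not overlap in either region. Fbp2, which encodes the muscle form of the same enzyme, was called in neither region over this step, with log2 differences of 0.25 ± 0.19 in duodenum (adjusted p = 0.403) and 0.45 ± 0.19 in ileum (adjusted p = 0.0727). Its RNA was not scarce. The Fbp2 means were 206 CPM at week 2 and 245 CPM at week 3 in duodenum, and 157 and 214 CPM in ileum. Those of Fbp1 at week 3 were 73.7 CPM in duodenum and 19.3 CPM in ileum, without scaling for gene length.

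Pck1, on the forward strand of chromosome 2 (173153048 to 173159273), fell less. In ileum its samples were 1157, 712 and 909 CPM at week 2, then 307.5, 456 and 291 CPM at week 3 (log2 -1.40 ± 0.37, adjusted p = 0.00366). In duodenum they were 1952, 1079 and 1284 CPM at week 2, then 806, 655 and 474 CPM at week 3 (log2 -1.16 ± 0.37, adjusted p = 0.0224). The groups did not overlap. The duodenum call was lost without week 2 sample 1, week 3 sample 2 or week 3 sample 3, with adjusted p of 0.149, 0.061 and 0.115, and with no low-count filter (adjusted p = 0.0759). From week 3 to week 4 Pck1 fell by 1.24 on the log2 scale in duodenum (SE 0.37, adjusted p = 0.0198) and fell by 1.47 in ileum (SE 0.37, adjusted p = 0.00428). Without ileum week 4 sample 1 it fell by 2.24 (SE 0.38, adjusted p = 3.71e-05). In an edgeR fit of only the groups compared, the ileum call was lost (adjusted p = 0.153). The duodenum call of this later fall was lost without week 3 sample 1, week 4 sample 1 or week 4 sample 2, with adjusted p of 0.0994, 0.0833 and 0.0713. Pck2, the mitochondrial form, was called in neither region between week 2 and week 3, with log2 differences of -0.03 ± 0.21 (adjusted p = 0.956) and 0.08 ± 0.22 (adjusted p = 0.827).

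The Pck1 promoter is shown because it carries the letters of the cyclic AMP response element known in this gene (RefSeq promoters of GRCm38.p6, chr2:173152823-173153047, forward strand, 5′ to 3′, the match to TNACGTCA in capitals). The match lies at -93 to -86 of the RefSeq start, which is downstream of the printed stretch, since that stops where the GENCODE transcript begins.
Pck1: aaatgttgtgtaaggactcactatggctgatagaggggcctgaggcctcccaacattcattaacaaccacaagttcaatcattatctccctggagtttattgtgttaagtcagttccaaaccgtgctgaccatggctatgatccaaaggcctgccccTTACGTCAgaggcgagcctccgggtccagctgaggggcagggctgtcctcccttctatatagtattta
TNACGTCA was searched on both strands and occurred in 2.52% of RefSeq promoters, and among the 9 genes in Pck1.

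Txnip, on the forward strand of chromosome 3 (96557957 to 96561883), fell at this step. Its duodenum samples were 285, 266 and 255 CPM at week 2, then 170.1, 164 and 130.2 CPM at week 3. Its ileum samples were 344, 296.5 and 269 CPM at week 2, then 217, 199.6 and 187 CPM at week 3. Txnip fell by 0.79 on the log2 scale in duodenum (SE 0.16, adjusted p = 0.000283) and fell by 0.59 in ileum (SE 0.16, adjusted p = 0.00461), with no overlap of samples. By week 4 it had risen again, by 1.00 ± 0.16 in duodenum (adjusted p = 2.44e-05) and 0.98 ± 0.16 in ileum (adjusted p = 1.97e-05), or 0.96 ± 0.18 without ileum week 4 sample 1 (adjusted p = 0.000105). Its week 4 samples were 245, 417 and 267 CPM in duodenum and 397, 456 and 341 CPM in ileum, all above every week 3 sample of their region. Txnip is thus the one gene of the 9 whose direction turned in both regions between these steps with both changes called. G6pc turned in ileum, where it rose from week 3 to week 4 by 1.5 ± 0.32 (adjusted p = 0.000651), or 1.12 ± 0.32 without week 4 sample 1 (adjusted p = 0.0129), while its duodenum difference of 0.43 ± 0.30 did not pass (adjusted p = 0.366). That ileum rise lost its call in an edgeR fit of only the groups compared (adjusted p = 0.0608).

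Arrdc4, the paralog of Txnip that responds to the same factors, fell at the same step and was not called between week 3 and week 4, with log2 differences of -0.27 ± 0.19 in duodenum (adjusted p = 0.375) and 0.15 ± 0.19 in ileum (adjusted p = 0.681). Its duodenum mean went from 117 ± 13.2 CPM (SD, n = 3) at week 2 to 42.5 ± 8.06 at week 3 and 35.2 ± 2.42 at week 4. Its ileum mean went from 199 ± 8.15 to 36.2 ± 7.01 and 40.04 ± 3.08 CPM. Over the step Arrdc4 fell by 1.46 on the log2 scale in duodenum (SE 0.19, adjusted p = 2e-07) and fell by 2.46 in ileum (SE 0.20, adjusted p = 1.77e-12). Mlxipl, which encodes the glucose-sensing factor ChREBP, rose over the same step, by 0.84 ± 0.21 in duodenum (adjusted p = 0.0039) and 0.69 ± 0.21 in ileum (adjusted p = 0.0135).

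The 250 bases before Txnip hold a pair of CACGNG hexamers 5 bases apart, the spacing of a carbohydrate response element (RefSeq promoters of GRCm38.p6, chr3:96557707-96557956, forward strand, 5′ to 3′, the pair and its spacer in capitals at -85 to -69).
Txnip: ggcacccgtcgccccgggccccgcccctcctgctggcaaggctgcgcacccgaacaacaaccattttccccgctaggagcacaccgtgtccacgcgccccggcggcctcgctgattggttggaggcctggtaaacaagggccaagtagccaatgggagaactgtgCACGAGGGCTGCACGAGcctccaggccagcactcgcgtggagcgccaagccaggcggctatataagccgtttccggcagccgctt
The pair, in which the hexamer CACGTG would also count, was searched on both strands and was found in 15 of 32851 RefSeq promoters, 0.0457%, which carry 14 gene symbols. An antisense gene, Gm15441, spans all of Txnip on the opposite strand, and whether the libraries kept the strand is not given in the sources used here. Gm15441 was estimated at 0.577 to 2.31 CPM over the 46 samples. Tkfc overlaps Cyb561a3 and the end of Ddb1 on the opposite strand, and Ddb1 was estimated at 162 to 753 CPM.

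Markers of the gut lining moved over the same step and are given beside these changes. The 12 epithelium markers summed to a mean of 10040 CPM at week 2, then 14870 CPM at week 3 in duodenum, and to 6940 and 19680 CPM in ileum. In duodenum 5 of the 12 rose and in ileum 6, and none fell. Those that rose included Krt20, a keratin of mature villus cells, by 2.87 ± 0.24 on the log2 scale in duodenum and 4.93 ± 0.26 in ileum. Epcam, found on all epithelial cells, differed by -0.02 ± 0.17 in duodenum (adjusted p = 0.965) and by 0.29 ± 0.17 in ileum (adjusted p = 0.222). Cdh1 and Cdx2 were not called in either region. The part of these shifts in the changes of the 9 genes was not tested. Liver also makes G6pc, Pck1 and Fbp1. The 10 hepatocyte markers summed to 222 CPM at week 2, then 22.4 CPM at week 3 in duodenum, and to 139 and 49.6 CPM in ileum. Most of that sum was Serpina1a, Serpina1b and Ttr, and Alb was at most 1.22 CPM in any sample. The part of these markers in the falls of G6pc, Pck1 and Fbp1 was not tested.

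Over the whole period, week 4 against day 0, 5 of the 9 genes rose and 3 fell in duodenum, where 20.4% of genes were higher and 20.1% lower. Khk rose most in duodenum, from 18.8, 20.5 and 31.6 CPM at day 0 to 194, 219.9 and 209 CPM at week 4. That was 3.13 ± 0.29 on the log2 scale (adjusted p = 2.11e-11). Slc2a5 rose by 2.35 ± 0.39, Slc5a1 by 1.92 ± 0.28, Tkfc by 1.39 ± 0.24 and Slc2a2 by 1.17 ± 0.43, the last with an adjusted p of 0.0288. Fbp1 fell by 2.29 (SE 0.29), Pck1 fell by 1.88 (SE 0.37) and G6pc fell by 0.80 (SE 0.30, adjusted p = 0.0292). Txnip did not pass, with means of 311 ± 17.3 CPM at day 0 and 309.7 ± 93.4 CPM at week 4 (log2 difference -0.01 ± 0.16, adjusted p = 0.979). The call of Slc2a2 was lost without day 0 sample 1, day 0 sample 2 or week 4 sample 3, with adjusted p of 0.0911, 0.0563 and 0.078. That of G6pc was lost without day 0 sample 2, day 0 sample 3 or week 4 sample 1, with adjusted p of 0.0914, 0.0914 and 0.206, and with the index of sex as a covariate (log2 -0.65, adjusted p = 0.0712).

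In ileum 6 rose and 3 fell over the same period, against 21.5% of genes higher and 20.4% lower. Without week 4 sample 1, 5 rose and 3 fell, against 19.7% higher and 20.2% lower. Fbp1 fell the most, from 185, 149.7 and 181 CPM at day 0 to 15.2, 6.36 and 10.3 CPM at week 4 (log2 -4.03 ± 0.31, adjusted p = 2.51e-13, or -4.43 ± 0.36 without week 4 sample 1). Slc2a5 rose by 3.54 ± 0.42 and Khk by 2.94 ± 0.29, or by 2.83 ± 0.38 and 2.3 ± 0.25 without week 4 sample 1. The rise of Slc2a2 depended on that sample. Its day 0 samples were 71.1, 176 and 92 CPM and its week 4 samples 775, 72.6 and 111 CPM. The rise was 1.5 ± 0.44 on the log2 scale (adjusted p = 0.00558) with all 3 week 4 samples and turned to -0.35 ± 0.25 without sample 1 (adjusted p = 0.287). Without sample 1, Slc5a1 rose by 1.24 ± 0.23 and Tkfc by 0.74 ± 0.21, in place of 1.98 ± 0.28 and 1.37 ± 0.24. Pck1 fell by 1.76 (SE 0.37), and fell by 2.56 (SE 0.39) without it. G6pc fell by 0.95 (SE 0.30, adjusted p = 0.0107), and its call was lost without day 0 sample 2 or week 4 sample 3, with adjusted p of 0.0921 and 0.0797. Without week 4 sample 1 it fell by 1.36 (SE 0.33, adjusted p = 0.00111). Txnip rose by 0.62 ± 0.16 (adjusted p = 0.00197), or 0.57 ± 0.18 without that sample (adjusted p = 0.00953).

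**Figure D3:**
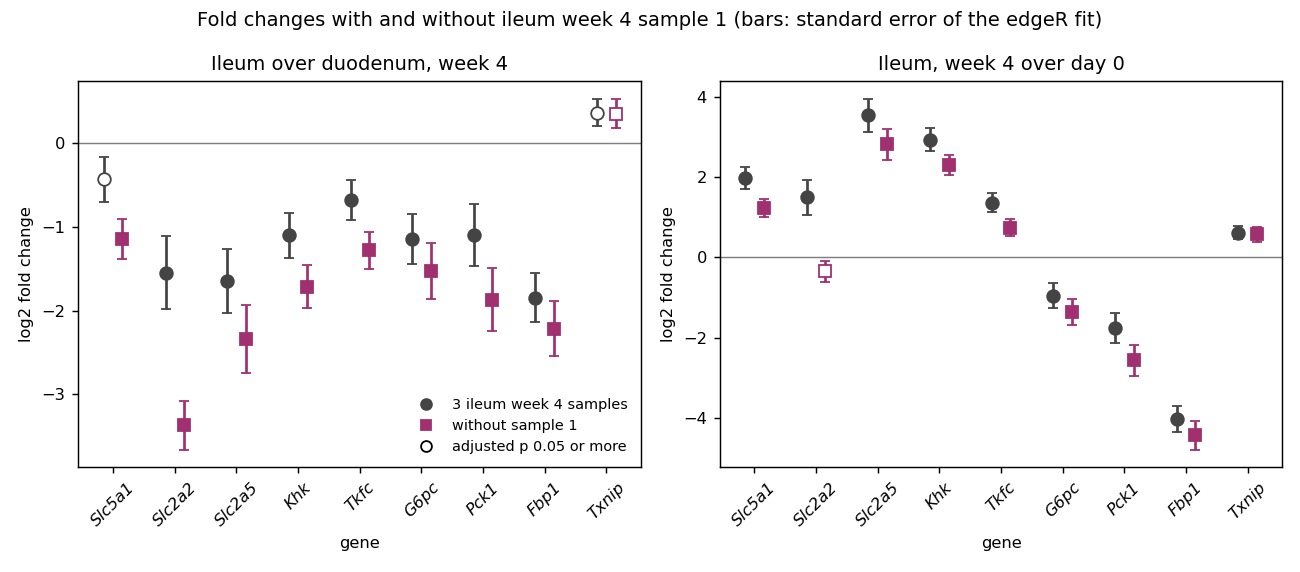
Log2 fold changes at week 4 with all 3 ileum samples (grey circles) and without sample 1 (purple squares), for ileum over duodenum (left) and for ileum week 4 over day 0 (right), with standard errors as bars and open symbols for an adjusted p of 0.05 or more. Slc2a2 moves the most, from -1.55 to -3.37 on the left and from 1.5 to -0.35 on the right, and Txnip hardly moves.

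Ileum week 4 sample 1 was high for 8 of the 9 genes. Slc2a2 was 8.46-fold above the mean of samples 2 and 3, Pck1 3.05-fold, Slc5a1 2.86-fold and Slc2a5 2.8-fold. Txnip was at 0.995 of that mean. From week 3 to week 4 in ileum 4 of the 9 genes were called with all samples, against 16.1% of genes: Txnip and G6pc rose, and Pck1 and Fbp1 fell. Without sample 1, 7 of the 9 were called, where 16.8% of all genes were called. Slc2a2 fell by 2.34 (SE 0.28, adjusted p = 5.84e-08), Khk fell by 0.89 (SE 0.25, adjusted p = 0.0107) and Slc5a1 fell by 0.67 (SE 0.24, adjusted p = 0.047), all called only without it. Fbp1 fell by 0.88 (SE 0.29, adjusted p = 0.0323), and its call was lost without week 3 sample 1 or 2 or week 4 sample 2 or 3, with adjusted p of 0.138, 0.137, 0.196 and 0.0721, and with the sex covariate (adjusted p = 0.0788). Without week 4 sample 1 it fell by 1.25 (SE 0.32, adjusted p = 0.00448). In duodenum 4 of the 9 were called between these ages, against 12.7% of genes: Slc2a5 and Txnip rose, and Pck1 and Fbp1 fell. Fbp1 fell by 0.96 on the log2 scale there (SE 0.28, adjusted p = 0.0161), and its call was lost without week 3 sample 1 or 2 or week 4 sample 2, with adjusted p of 0.0651, 0.0693 and 0.123.

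From day 0 to day 2 in duodenum 3 of the 9 rose, against 6.8% of genes called: Khk by 0.96 ± 0.27, G6pc by 1.04 ± 0.30 and Fbp1 by 0.96 ± 0.28 on the log2 scale. The G6pc samples were 68.0, 92.4 and 88.1 CPM at day 0 and 175.5, 159.6 and 176.5 CPM at day 2. No call of the 3 held without duodenum day 0 sample 2, day 2 sample 1 or day 2 sample 3, and 1 held without day 0 sample 1. Those of Khk and G6pc held without day 0 sample 3 and without day 2 sample 2, where that of Fbp1 had adjusted p of 0.0703 and 0.0562. In ileum G6pc was the only one called, against 5.2% of genes. It rose from 43.4, 55.5 and 26.1 CPM to 124, 147 and 135 CPM, by 1.70 ± 0.30 on the log2 scale (adjusted p = 0.000379). Pck1 stood at 823, 857 and 1320 CPM in duodenum at day 0 and at 1817, 1715 and 1947 CPM at day 2, without overlap, and its log2 difference of 0.87 ± 0.36 did not pass (adjusted p = 0.167).

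From day 2 to day 8, 6 of the 9 fell in duodenum and none rose, against 34% of genes called. These were Slc5a1, Slc2a5, G6pc, Pck1, Fbp1 and Txnip. Pck1 had the largest fall, to 645, 538 and 664 CPM at day 8, where it fell by 1.57 on the log2 scale (SE 0.37, adjusted p = 0.00113). Fbp1 fell by 0.85 (SE 0.28), and its call was lost without day 8 sample 2 (adjusted p = 0.0715). In ileum 6 fell, against 9.79% of genes called: Slc5a1, Slc2a5, Tkfc, G6pc, Fbp1 and Txnip. Slc2a5 had the largest fall, from 11.5, 12 and 11.6 CPM to 2.75, 3.46 and 3.71 CPM, and fell by 1.81 on the log2 scale (SE 0.41, adjusted p = 0.00562). It was the only one of these 6 whose call held with each of the day 2 and day 8 ileum samples left out in turn. The other 5 had adjusted p up to 0.222 under those omissions, and between 1 and 3 of the 9 genes were then called. The shares of all genes called in those runs are not given here. With the sex covariate Slc5a1, Tkfc, G6pc and Fbp1 lost the call, with adjusted p of 0.0746, 0.0677, 0.11 and 0.133.

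From day 8 to week 2, 5 of the 9 rose in duodenum, against 15.7% of genes called: Slc5a1, Tkfc, G6pc, Pck1 and Fbp1. G6pc rose the most, from 70.7, 69 and 78.4 CPM to its week 2 level, by 1.55 ± 0.30 on the log2 scale (adjusted p = 0.00098). Without duodenum week 2 sample 1 it was the only one called, and without day 8 sample 1 or 2 it and Fbp1 were. Slc5a1 was also lost without day 8 sample 3 or week 2 sample 3, with adjusted p of 0.0939 and 0.0533. In ileum 3 rose, against 6.64% of genes called. Txnip went from 147, 163.5 and 155 CPM to its week 2 level (log2 0.97 ± 0.16, adjusted p = 0.00102), with G6pc and Fbp1 rising by 1.19 ± 0.30 and 0.93 ± 0.28. The call of Fbp1 was lost with each of the 6 ileum samples left out in turn, and that of G6pc without day 8 sample 1, week 2 sample 1 or week 2 sample 3. The adjusted p reached 0.253 and 0.146. With the sex covariate that of Fbp1 was 0.0558.

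The 9 genes tended to be lower in ileum than in duodenum, and no gene of the 9 was called higher in ileum at any age. At day 6 G6pc went the other way without a call, at 99.3 and 122 CPM in ileum against 45.1 and 74.3 CPM in duodenum. That was 1.86-fold between means, without overlap. The day 6 means of Slc5a1, Pck1 and Fbp1 were also higher in ileum, with overlapping samples. Slc2a5 was called lower in ileum at 6 of the 8 ages and Khk at 7 of 8. The number called lower was 5 of 9 at day 0, against 3.14% of genes, and 3 of 9 at day 2, against 3.97%. It was 2 of 9 at day 4 (15% of genes), 2 of 9 at day 6 (17.5%) and 4 of 9 at day 8 (22.6%). It was 6 of 9 at week 2 (11.8%), 2 of 9 at week 3 (6.9%) and 7 of 9 at week 4 (13.9%). At day 4 and day 6 the share of the 9 was near the background.

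**Figure D4:**
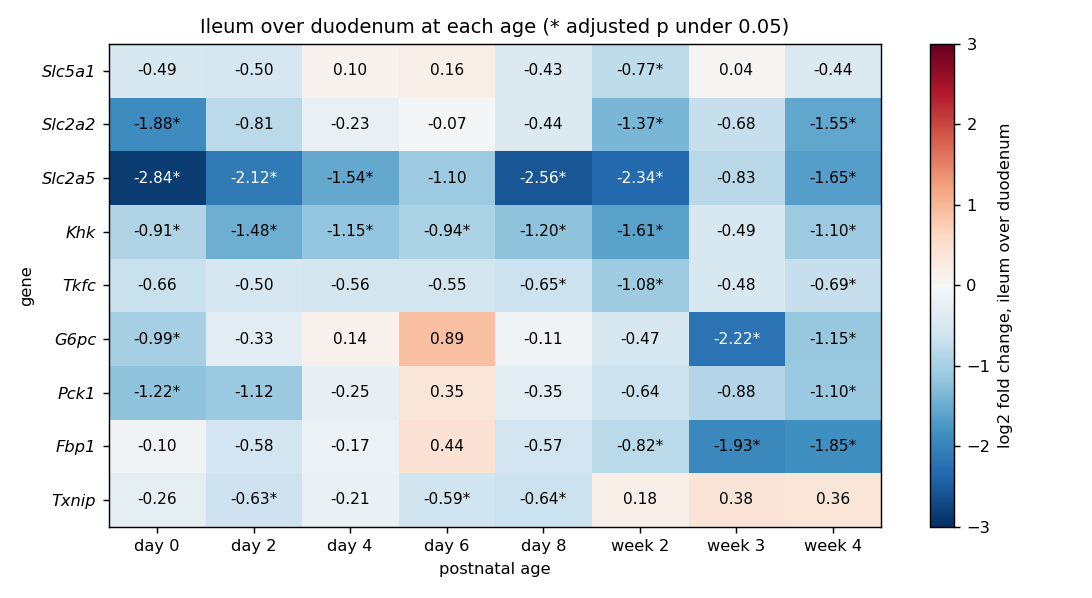
Log2 fold change of ileum over duodenum for each gene (rows) at each age (columns), on a scale from -3 (blue) to 3 (red), with a star for an adjusted p under 0.05. Starred cells are all blue, Slc2a5 and Khk carry the most stars, and G6pc and Fbp1 stand out at week 3.

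Slc2a5 had the widest gap of the 9 at birth. At day 0 its samples were 40.7, 49.8 and 44.7 CPM in duodenum and 2.4, 12.5 and 4.13 CPM in ileum, 7.09-fold between means (log2 -2.84 ± 0.41, adjusted p = 4.25e-05). This call was lost in an edgeR fit of only the groups compared (adjusted p = 0.0507). At day 8 the samples were 23.6, 15.98 and 19.6 CPM against 2.75, 3.46 and 3.71 CPM, a log2 difference of -2.56 ± 0.42. By week 3 the difference was -0.83 ± 0.37 and did not pass (adjusted p = 0.135), although the samples still did not overlap. Slc2a2 was lower in ileum at day 0, with 360.2, 450.1 and 438 CPM in duodenum against 71.1, 176 and 92 CPM (log2 -1.88 ± 0.44, adjusted p = 0.00685), and this call was lost without ileum day 0 sample 1 (adjusted p = 0.0724). Khk, G6pc and Pck1 were also called lower at day 0. Their calls were lost without several of the 6 day 0 samples: duodenum samples 2 and 3 and ileum samples 1, 2 and 3 for Khk, the same set but ileum sample 2 for G6pc, and the same set but ileum sample 3 for Pck1. The adjusted p reached 0.312, 0.23 and 0.26. With same-numbered samples paired Khk was at -0.88 and was not called (adjusted p = 0.0573).

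Slc5a1 differed least between the regions among the transporters. It was called at week 2 alone, with a log2 difference of -0.77 ± 0.27 (adjusted p = 0.0365), and that call was lost without duodenum samples 1 or 3 or any ileum sample of that age, with adjusted p up to 0.145. With same-numbered samples paired it was at -0.76 and was not called (adjusted p = 0.0693). At week 3 its means were 2491 ± 399.5 CPM in duodenum and 2555 ± 375 CPM in ileum (n = 3 each). The log2 difference there was 0.04 ± 0.27 (adjusted p = 0.953). Also at week 2, Slc2a2 was lost without duodenum sample 1 or ileum sample 1 or 2, and Fbp1 without duodenum sample 1 or any ileum sample, with adjusted p up to 0.0794 and 0.185. Slc2a5, Khk and Tkfc kept their week 2 calls with each of those samples left out.

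At week 3 G6pc was 4.63-fold lower in ileum (log2 -2.22 ± 0.32, adjusted p = 6.9e-06) and Fbp1 3.82-fold lower (log2 -1.93 ± 0.29, adjusted p = 1.06e-05). For G6pc this was the widest gap of the 8 ages, and for Fbp1 it was 4.54-fold at week 4 without ileum sample 1. These were the only calls of the 9 at week 3. From day 2 to day 8 neither gene was called between the regions. Whether the ileum to duodenum difference varied over the 8 ages was tested by an F test, which called 22.4% of all genes. It called 4 of the 9: G6pc (adjusted p = 0.000241), Fbp1 (0.000324), Txnip (0.000754) and Slc2a5 (0.047). Without ileum week 4 sample 1 it called 8 of the 9, all but Tkfc (adjusted p = 0.143). The share of all genes called in that run is not given here, so the 2 counts cannot be compared against it. The change from day 0 to day 8 in ileum minus that in duodenum was called by edgeR for none of the 9, against 10.1% of genes, and by DESeq2 for none. An unadjusted p under 0.05 was seen for 2 of the 9, Slc2a2 and G6pc, and the share of all genes with one is not given here. The widest such difference was 1.45 ± 0.61 for Slc2a2 (adjusted p = 0.116).

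Txnip showed the other course. It was lower in ileum at day 2 (log2 -0.63 ± 0.16), day 6 (-0.59 ± 0.20) and day 8 (-0.64 ± 0.16), and was not called from week 2 on. At week 3 every ileum sample lay above every duodenum sample, 1.3-fold between means, without a call. At day 8 its samples were 240.1, 252.5 and 231 CPM in duodenum and 147, 163.5 and 155 CPM in ileum. At week 4 they were 245, 417 and 267 CPM against 397, 456 and 341 CPM, which overlapped (log2 0.36 ± 0.16, adjusted p = 0.0841, or 0.35 ± 0.18 and 0.126 without ileum sample 1). The day 2 call was lost without ileum sample 1 or 2 (adjusted p = 0.0652 and 0.0673). The day 6 calls of Txnip and Khk rest on 2 samples a region and were lost without duodenum sample 2, ileum sample 1 or ileum sample 2, with adjusted p of 0.182, 0.122 and 0.0688 for Txnip and 0.329, 0.0879 and 0.146 for Khk. With both samples 3 of day 6 kept under their labels, neither was called (adjusted p = 0.804 and 0.811). The day 8 call of Tkfc, log2 -0.65 ± 0.24, was lost without samples 1 or 3 of either region, with adjusted p from 0.077 to 0.0921, and with DESeq2 (log2 -0.56, adjusted p = 0.0524) or RLE size factors (adjusted p = 0.0592).

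At week 4 the genes called lower in ileum were Slc2a2, Slc2a5, Khk, Tkfc, G6pc, Pck1 and Fbp1. Khk was at 194, 219.9 and 209 CPM in duodenum and 163, 67.8 and 60 CPM in ileum (log2 -1.10 ± 0.27, adjusted p = 0.00287). Fbp1 was at 38.95, 28.6 and 45.7 CPM against 15.2, 6.36 and 10.3 CPM (log2 -1.85 ± 0.29, adjusted p = 1.85e-05). Slc2a5 differed by -1.65 ± 0.38, and Slc2a2 by -1.55 ± 0.44 with overlapping samples. Without ileum sample 1, 8 of the 9 were lower, against 15.7% of genes, and no ileum sample of these 8 reached a duodenum sample. Khk was then at -1.72 ± 0.26, Fbp1 at -2.22 ± 0.33, Slc2a5 at -2.34 ± 0.40, Tkfc at -1.28 ± 0.22, G6pc at -1.53 ± 0.33 and Pck1 at -1.87 ± 0.38. Slc2a2 then differed 10.2-fold (log2 -3.37 ± 0.29, adjusted p = 8.36e-11) and Slc5a1 by -1.15 ± 0.24 (adjusted p = 0.000544). Without ileum sample 3 it was 4 of 9, with Slc2a2, Tkfc and Pck1 lost at adjusted p of 0.0643, 0.188 and 0.111. The share of all genes called in that run is not given here. Without ileum sample 2, or without duodenum sample 3, Tkfc and Pck1 were lost, with adjusted p of 0.124 and 0.135, and of 0.0829 and 0.0796. In an edgeR fit of only the groups compared, Slc2a2, Khk, Tkfc and Pck1 lost the call. Smooth muscle markers also differed between the regions at week 4, with 5 of 6 higher in ileum, and 3 of 5 immune markers were higher there. Of the 12 epithelium markers 2 were lower in ileum and 0 higher. Epcam, one of those not called, differed by 0.17 ± 0.17 (adjusted p = 0.486). The part of tissue composition in these differences was not tested.

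Beside the 9, 72 other genes of sugar handling in 6 lists were followed, of which 71 could be tested; Aldoa matched more than 1 identifier. From week 2 to week 3, 24 rose and 5 fell in duodenum, against 7.7% of all genes higher and 10.6% lower. In ileum 30 rose and 7 fell, against 12.9% higher and 13.9% lower. Median log2 changes of the 71 were 0.28 in duodenum and 0.44 in ileum. Glycolysis led these counts, with 10 of 17 tested genes up in duodenum and 11 of 17 in ileum and none down. The genes common to both were Hk2, Gpi1, Pfkp, Tpi1, Gapdh, Pgk1, Pgam1, Eno1, Pkm and Ldha. On the gluconeogenesis list none of 11 genes was called lower in either region. Pcx, Got1, Mdh1 and Glud1, which feed carbon into the pathway from mitochondria and amino acids and also serve other pathways, rose in both. A called fall over this step among gluconeogenic genes was thus seen in G6pc, Fbp1 and Pck1 and in none of these 11. Slc37a4, on this list, had lower means at week 3 without a call. They were 104 CPM at week 2 and 81 CPM at week 3 in duodenum, and 78.6 and 57.6 CPM in ileum. The ileum samples did not overlap, at 74 to 86.7 CPM and then 46 to 68.6 CPM.

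**Figure D5:**
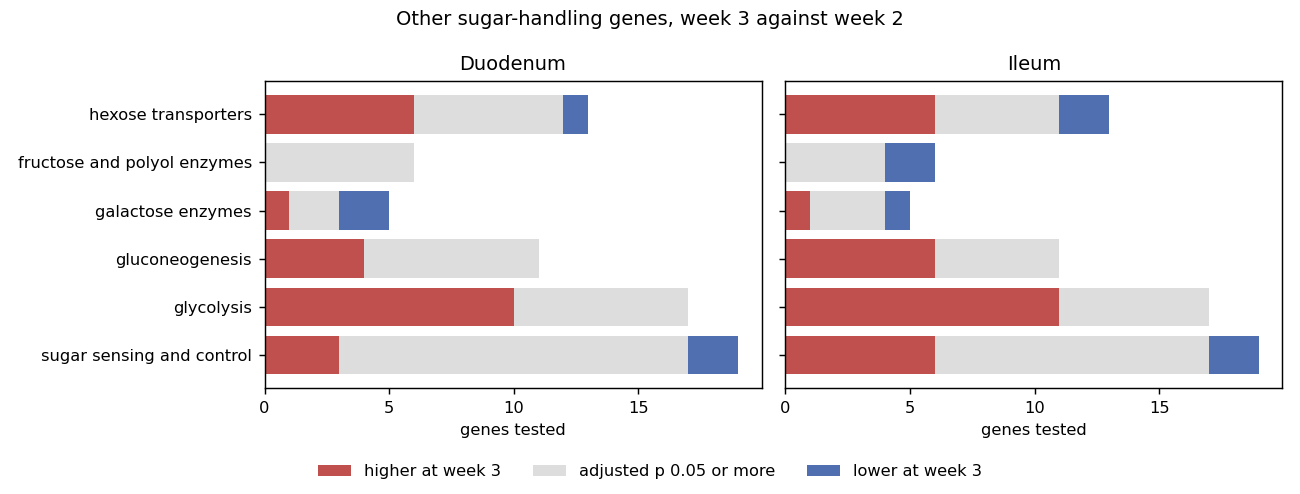
Number of tested genes (horizontal axis) on each of 6 lists that were higher (red), lower (blue) or not called (grey) at week 3 against week 2, in duodenum and ileum. Glycolysis has 10 and 11 of 17 genes higher and none lower, and the fructose and polyol enzymes have none higher in either region.

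Among the called genes with a mean log2 CPM of 1 or more, Slc5a4b and Slc2a7 had the largest rises over the step from week 2 to week 3. Slc5a4b, a relative of Slc5a1, rose from a mean of 1.24 to 85.3 CPM in duodenum (log2 6.09 ± 0.51, adjusted p = 2.39e-11) and from 2.51 to 103 CPM in ileum (log2 5.36 ± 0.48, adjusted p = 7.65e-11). How the reads were split between Slc5a4b and its relative Slc5a4a was not examined. Slc2a7, which encodes GLUT7, rose from 1.04 to 14 CPM in duodenum and from 0.426 to 12.7 CPM in ileum, by 3.76 ± 0.39 and 4.88 ± 0.42. Glud1 rose by 2.23 ± 0.26 in duodenum and Gpt, an alanine aminotransferase, by 3.67 ± 0.35 in ileum. The largest falls among them in both regions were those of Arrdc4, Galk1 and Slc2a8. Galk1, the kinase that starts galactose breakdown, fell by 1.21 (SE 0.21) in duodenum and fell by 1.72 (SE 0.21) in ileum. Slc2a8, an intracellular hexose transporter, fell by 1.67 (SE 0.26) in duodenum and fell by 2.13 (SE 0.26) in ileum.

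Over the whole period 29 of the 71 rose and 16 fell in duodenum, against 20.4% of all genes higher and 20.1% lower. In ileum 25 rose and 20 fell, against 21.5% higher and 20.4% lower. Without ileum week 4 sample 1, 19 rose and 22 fell there among 70 tested, against 19.7% and 20.2%. Hk2, a hexokinase isoform, rose by 2.59 ± 0.31 in duodenum and 3.89 ± 0.33 in ileum, or 4.11 ± 0.32 without that sample. Galk1 fell by 2.20 (SE 0.21) in duodenum and went from a mean of 116 to 8.34 CPM in ileum (adjusted p = 2.99e-16). Arrdc4 fell by 2.23 (SE 0.20) in duodenum and fell by 2.08 (SE 0.20) in ileum, or by 2.08 (SE 0.23) without that sample. At week 4, 9 of the 71 were higher in ileum than in duodenum and 22 lower, against 14.5% of all genes higher and 13.9% lower. Without that sample it was 10 and 32 of 70, against 16.8% and 15.7%. Of those with a mean log2 CPM of 1 or more, Hk2 stood highest in ileum against duodenum (log2 1.71 ± 0.30, or 1.97 ± 0.30 without that sample), and Galk1 lowest (log2 -1.47 ± 0.22, or -1.74 ± 0.24). Slc37a4, which encodes the transporter that brings glucose-6-phosphate to G6pc, differed by -1.38 ± 0.22 (adjusted p = 1.68e-05), or -1.81 ± 0.22 without that sample, and Slc2a7 by -1.27 ± 0.34, or -2.11 ± 0.34. Slc37a4 did not pass over the step from week 2 to week 3 in either region, with log2 differences of -0.36 ± 0.21 and -0.45 ± 0.21 (adjusted p = 0.262 and 0.118).

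Across the 16 group means, which share the same libraries and depth, the log2 levels of the 5 transport and fructose genes followed one another, with Pearson r from 0.81 to 0.94 over their 10 pairs. G6pc, Pck1 and Fbp1 followed one another with r from 0.77 to 0.88 over 3 pairs. Between those sets r ran from -0.77 to -0.06, and Txnip had r from -0.10 to 0.21 with the others. Without ileum week 4 sample 1 the first range was 0.69 to 0.93 and the range between the sets -0.70 to 0.27. Among the 12405 named genes whose log2 CPM averaged 1 or more, those most like Slc5a1 by this measure were Plpp1 (0.982), Dpep1 (0.982) and Slc6a20a (0.98). Those most like Khk were Treh (0.989), Arg2 (0.968) and Ada (0.967), and those most like Fbp1 were Ros1 (0.972), Paqr9 (0.968) and Aldh18a1 (0.966). For Txnip the closest was Pik3r4, at 0.768.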

How the data were processed

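The deposited table holds estimated counts per gene, made by the authors before deposit; the submitters' processing notes list STAR 2.6.1d, Salmon 0.14.2, DESeq2 1.30.1 and the build mm10, without a role for each, and the file's own name adds tximport. The annotation release and the strandedness are not given in the sources used here. The values were already whole, so rounding changed nothing. Of 54532 identifiers, 51106 carried a symbol. Normalized tables by the authors served for names and for 1 alternative set of samples.

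Counts were scaled by trimmed mean of M-values, genes were kept by edgeR's low-count filter over the 16 groups, and 21986 genes were fitted with edgeR 4.0.16 (R 4.3.3), with robust quasi-likelihood and 1 mean per group over 46 samples. Each of 25 comparisons was tested across all genes with Benjamini-Hochberg adjustment, and called means an adjusted p under 0.05. The standard error is the log2 fold change over the square root of F. The fit was tested on simulated data first. Whether same-numbered samples of the regions deviate together from their group means was checked by correlation: all 3 pairs exceeded 0.1 at day 0, day 2, week 2 and week 3 (0.129 to 0.547), which were taken as paired, and not at day 4, day 8 or week 4. Day 6 had 2 pairs. Over all ages the 23 same-number pairs averaged 0.155 (-0.363 to 0.672) and 44 pairs of different number -0.079. Levels per kilobase use exon lengths of GENCODE M21, and promoters are those of RefSeq on GRCm38.p6. Alternatives were DESeq2 1.42.0, other scaling, no filter, fewer or more samples, the sample number as a block, a sex covariate and each sample left out in turn. The 9 genes, the 72 others and the marker lists were chosen with earlier results of these data known. The other genes named are the 3 largest called rises and falls per comparison, those known as partners of the 9, and the 3 closest by correlation for 4 of the 9.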

Additional observations from a re-analysis of the deposited data

Results flagged for a closer look

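For 4 of the 9 genes the difference between ileum and duodenum varied over the 8 ages by edgeR's F test, with an adjusted p of 0.047 for Slc2a5, 0.000241 for G6pc, 0.000324 for Fbp1 and 0.000754 for Txnip. For Slc2a5 the duodenum mean was 7.09-fold that of ileum at day 0, 1.78-fold at week 3 and 3.14-fold at week 4, or 5.03-fold at week 4 without ileum sample 1. For G6pc the gap was widest at week 3, at 4.63-fold. For Fbp1 it was 3.82-fold at week 3 and 3.56-fold at week 4, or 4.54-fold at week 4 without ileum sample 1. For Txnip the ileum was lower at day 2, day 6 and day 8 and was not called from week 2 on. The samples that end its day 2 and day 6 calls are given in the report. The change of G6pc from week 2 to week 3 was larger in ileum than in duodenum by -1.75 on the log2 scale, a test of the difference itself (adjusted p = 0.0264), with the samples that end this call given in the report.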

How the results depend on the processing

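Of 97 called results on single genes, 53 kept their call in every alternative run. With each sample left out in turn, 445 of 584 values kept call and direction, 138 lost the call and 1 reversed, Slc2a2 in ileum at week 4 against day 0 (-0.347 without week 4 sample 1, and up to 1.966 without day 0 sample 2). The call was lost for 26 results with no low-count filter, 17 with both day 6 samples numbered 3 kept, 13 with only the groups compared, 7 with the sex covariate and 1 each with DESeq2 and RLE size factors, and for none of 95 with the 40 samples of the normalized tables; the cause was not tested.

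The counts of called genes below are given without the share of all genes called in the same run, and so describe the processing only. Numbers of the 9 genes called moved by over 1.5 times as follows. With no low-count filter they were 0 for duodenum day 2 against day 0, 3 for week 2 against day 8 and 2 for week 4 against week 3, 2 for ileum day 8 against day 2, 2, 0 and 3 for the regions at day 0, day 6 and week 2, and 0 for the difference between regions in the week 2 to week 3 change. With only the groups compared they were 6 for duodenum day 2 against day 0, 2, 6 and 1 for ileum day 2 against day 0, week 2 against day 8 and week 4 against week 3, 2, 9, 1, 5, 7, 6 and 3 for the regions at day 0, 2, 4, 6 and 8 and weeks 3 and 4, and 2 for the difference in the day 0 to day 8 change. With the day 6 samples kept they were 1 for duodenum day 2 against day 0, 1 for ileum day 8 against day 2, 2 and 0 for the regions at day 0 and day 6, and 0 for the week 2 to week 3 difference. With 40 samples they were 4 and 4 for the regions at day 6 and week 3, and 2 for that difference. With the sex covariate 2 were called for ileum day 8 against day 2.

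With 1 sample left out the counts ranged as follows. In duodenum they were 0 to 2 for day 2 against day 0, 1 to 6 for week 2 against day 8 and 1 to 3 for week 4 against week 3. In ileum they were 1 to 2 for day 2 against day 0, 1 to 3 for day 8 against day 2, 1 to 2 for week 2 against day 8 and 3 to 7 for week 4 against week 3. Between regions they were 1 to 5 at day 0, 0 to 2 at day 6 and 3 to 6 at week 2. They were 3 to 8 for region by age and 0 to 1 for the week 2 to week 3 difference. The 9 genes varied with age in both regions throughout.

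With the replicate block 2 genes were called for the week 2 to week 3 difference between regions, and 5 of the 97 results lost their call. Same-numbered samples were taken as paired at day 0, day 2, week 2 and week 3 from their correlations, and no label states it. At these ages the block ended no call between the regions but those of Khk at day 0 and Slc5a1 at week 2. At day 8, where they were not taken as paired, it ended that of Tkfc (log2 -0.65, adjusted p = 0.0544). Precision is limited by 3 samples a group, and the lowest counts were 50 for Slc2a5 and 98 for G6pc.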
